A study of Mus musculus with 1617 samples.

Results

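Brain macrophages from 7-day-old (P7) mice were compared by how much Mrc1 they carried. Mrc1 encodes the mannose receptor CD206, an endocytic receptor that binds sugars on microbes and on the body's own glycoproteins. The P7 cells from hippocampus, thalamus and visual cortex (110 in all) were placed in the Mrc1-high arm at 100 TPM of Mrc1 or more (48 cells) and in the Mrc1-negative arm below 1 TPM (24 cells). The remaining 38 cells had intermediate levels and were used only as a description. The 72 cells of both arms come from the 1617 of the series, and TPM is a transcript level scaled by gene length to a fixed total per cell.

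Sorting took cells with CD45, F4/80 and CD11b but without Ly6C; they were captured singly on Fluidigm C1 chips and sequenced at several ages and in several brain regions. The P7 cells were labelled as microglia of each region and sequenced with paired-end reads; no genotype, strain, treatment, sex or pooling of animals was stated for them. No animal was named, so each region counts as 1 sample, cells are not replicates, and none of the values below carries a p-value or standard error. The differences are therefore descriptions of these cells, set against the same measure over all genes.

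In adult brain, Mrc1 is best known as a marker of border-associated macrophages, the resident macrophages of the meninges, perivascular spaces and choroid plexus, which also carry Pf4, Lyve1, F13a1 and Cd163. Parenchymal microglia are defined instead by genes such as P2ry12, a purinergic receptor that senses nucleotides from injured cells, with Tmem119, Cx3cr1 and the transcription factor Sall1. Microglia of the first postnatal weeks still divide, and cells with Mrc1 transcript occur among macrophages of the developing brain. The question put to the data was which other genes differ between microglia with much Mrc1 and microglia with none.

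Mrc1 (chr2:14229392-14332057 of GRCm38, plus strand) chose the cells, so its levels are given without comparison. In the Mrc1-high arm it ranged from 100.02 to 5987 TPM with a median of 464 TPM. The median was 446 TPM in hippocampus (16 cells), 260 TPM in thalamus (15 cells, none above 515 TPM) and 1029 TPM in visual cortex (17 cells). Visual cortex thus held the highest typical level, and thalamus lacked the cells above 1000 TPM seen in the other regions. At the edge of the arm, the lowest cells inside had 100.02 and 102.25 TPM and the highest outside had 98.3 and 92.8 TPM. In the Mrc1-negative arm 17 of 24 cells were listed at 0 and the highest had 0.83 TPM; the lowest cell outside it had 1.13 TPM.

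**Figure D1:**
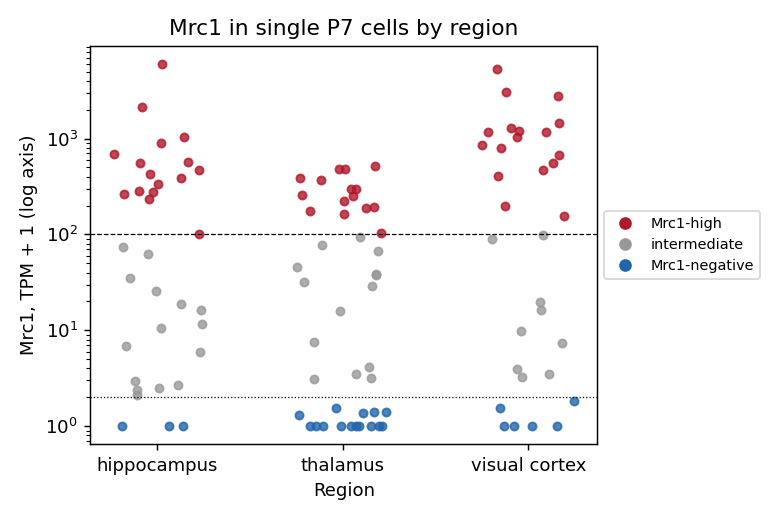
Mrc1 in each P7 cell (TPM + 1, log axis) by region; each point is 1 cell, the dashed line marks 100 TPM and the dotted line 1 TPM. Levels formed a continuous range, with 38 cells between the lines, and hippocampus and visual cortex held the highest cells.

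The arms were of unequal size, and this bears on every comparison. The Mrc1-negative arm held 3 cells in hippocampus, 15 in thalamus and 6 in visual cortex, against 16, 15 and 17 Mrc1-high cells. Genes at 1 TPM or more numbered 871 to 4473 per Mrc1-high cell (median 2304) and at most 3183 per Mrc1-negative cell (median 2155); 2 and 4 cells respectively had fewer than 1000. Of the 8836 genes measured (those that averaged at least 5 TPM in 1 of the arms), 4868 were at 0 in all Mrc1-negative cells of hippocampus and 3896 in those of visual cortex, but 1541 in thalamus; at 0 in all Mrc1-high cells were 988, 1273 and 1270. The median log2 ratio of mean TPM over all measured genes was 1.85 in hippocampus, 1.15 in visual cortex and 0.00 in thalamus, where arms were of equal size. Over the 1002 genes detected in 50% or more of the cells these medians were 0.82, 0.64 and -0.04. Ratios in hippocampus and visual cortex are therefore to be read against those medians, and the part of arm size in them was not tested.

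**Figure D2:**
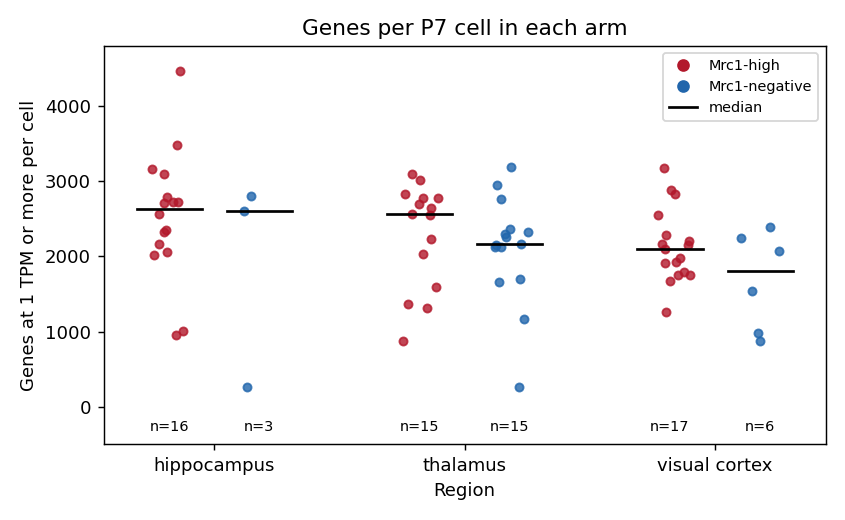
Genes at 1 TPM or more in each P7 cell by region and arm; each point is 1 cell, black bars are medians and n is the number of cells. The arms overlapped in every region, and the hippocampal Mrc1-negative arm held 3 cells, 1 of them with fewer than 1000 genes.

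A gene was called higher (or lower) in Mrc1-high cells when the average over regions of its log2 ratio passed 1.5-fold and the sign was the same in all 3 regions, on the ratio of means and on the mean of log2(TPM + 1). By this rule 1497 genes were higher, 16.9% of those measured, and 1.41% were lower. Of the called genes 92.3% were higher. In thalamus alone, where 1 region had to pass in place of 3, 3228 genes (40.4%) were higher and 2811 (35.1%) lower, of 7999. Among the 1002 genes detected in 50% or more of the cells, a filter added after the data were seen, 13.8% were higher and 1.1% lower, so 92.6% of those called were higher. These shares are the background for the gene groups below.

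Both arms carried the genes of homeostatic microglia. P2ry12 ranged from 132.5 to 19311 TPM in the Mrc1-high cells (median 5312) and from 3.3 to 22293 TPM in the Mrc1-negative cells (median 6819). It reached 100 TPM in 48 of 48 and 21 of 24 cells (87.5%, exact Clopper-Pearson 95% interval 67.6 to 97.3%). The ranges overlapped in every region, and the mean over regions was 6164 against 6241 TPM, a log2 ratio of -0.04 (-0.40 in thalamus). On the mean of log2(TPM + 1) the difference was 1.11, and 3 Mrc1-negative cells were under 100 TPM. Cx3cr1, the fractalkine receptor, reached 100 TPM in 46 of 48 and 21 of 24 cells. Sall1, a transcription factor on which microglial identity depends, reached it in 19 of 48 and 11 of 24 cells. Both arms thus carried the markers that define microglia.

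Over the 18 homeostatic genes, all measured, the median log2 ratio was 0.17 against 1.35 over all measured genes, and -0.01 in thalamus; 2 were called higher and 1 lower. The order turned on the mean of log2(TPM + 1), where the list median was 0.86 and that of all genes 0.26. Tmem119, a microglial surface protein, was called higher, with means of 676 and 317 TPM. In hippocampus the Mrc1-high cells ran from 0 through a median of 164.8 to 10764 TPM and the 3 Mrc1-negative cells were at 0, 20.6 and 216.5 TPM. In thalamus the medians were 317 and 39.97 TPM but the means were 659 and 612 TPM, a log2 ratio of 0.11. Tmem119 reached 100 TPM in 26 of 48 Mrc1-high cells (54.2%, interval 39.2 to 68.6%) and 8 of 24 Mrc1-negative cells (33.3%, interval 15.6 to 55.3%). The intervals overlap, and cells of both arms were at 0 in each region. Without hippocampus the log2 ratio was 0.32 and the call was lost.

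Sall3, a zinc finger factor related to Sall1, was the other member called higher, at 41.5 against 3.17 TPM (log2 ratio 2.94 in thalamus), from 18 of 48 and 4 of 24 cells at 1 TPM or more. With the highest cell of each arm and region left out, no homeostatic gene was called lower and the list median was 0.78, against 2.003 over all genes.

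Genes of border-associated macrophages marked 2 of the Mrc1-high cells rather than the arm. Of 7 markers (F13a1, Lyve1, Pf4, Cd163, Ms4a7, Cbr2 and Folr2), these cells each held 6 at 100 TPM or more, and no other P7 cell held more than 1. The hippocampal cell of the pair had Mrc1 at 1026 TPM, P2ry12 at 412, Pf4 at 5715, Ms4a7 at 1686 and Lyve1 at 1064 TPM. The cell from visual cortex had Mrc1 at 5361 TPM, P2ry12 at 1797, Pf4 at 11212 and F13a1 at 4450 TPM, with Sall1 and Tmem119 at 0. F13a1, which encodes a chain of clotting factor XIII, was at 1 TPM or more in these 2 Mrc1-high cells and in 0 of 24 Mrc1-negative cells (upper limit of the interval 14.2%). Lyve1, a hyaluronan receptor, was likewise found in 2 of 48 cells. In thalamus F13a1 and Lyve1 were at 0 in every cell of both arms.

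**Figure D3:**
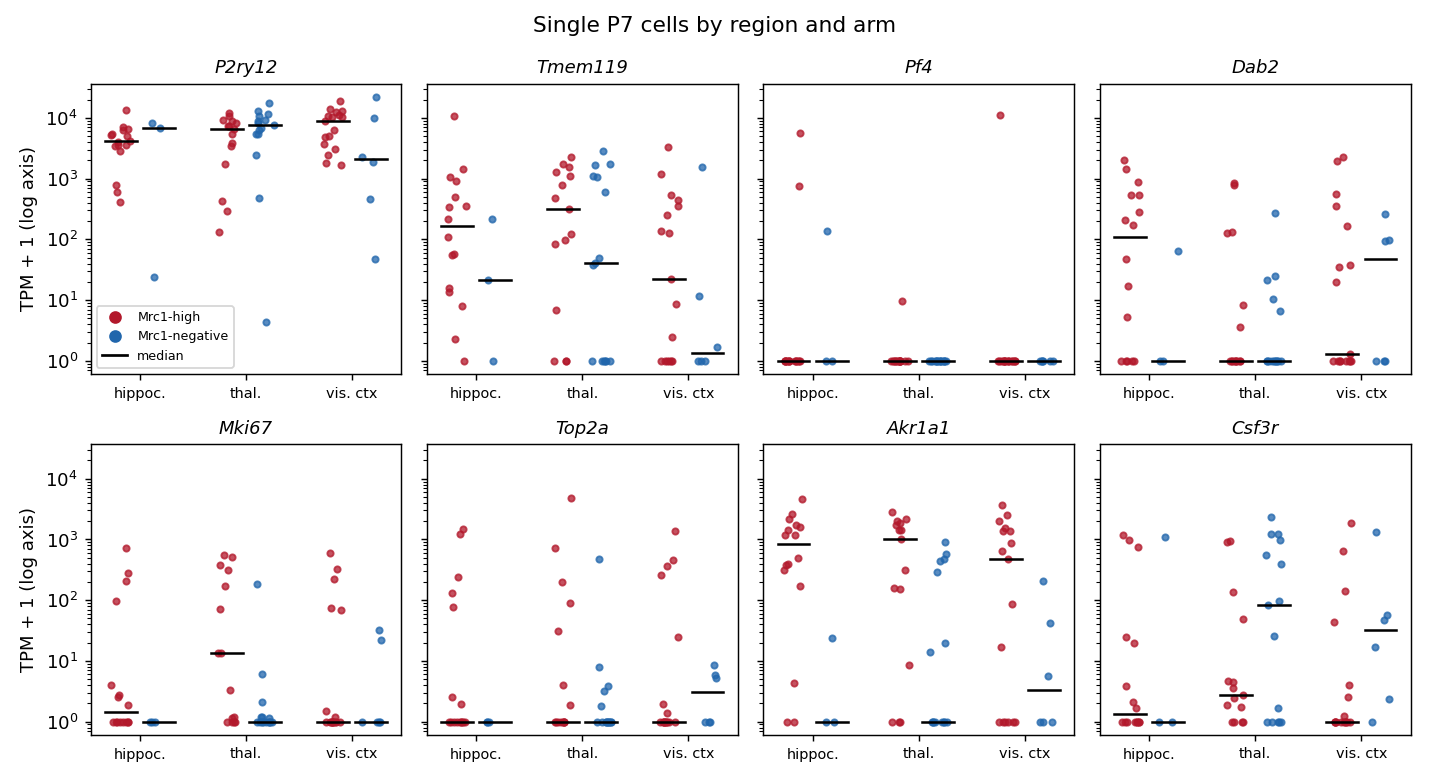
TPM + 1 (log axis) of 8 genes in each P7 cell by region and arm; each point is 1 cell and black bars are medians. P2ry12 overlapped between arms, Pf4 was high in isolated cells, Akr1a1 had higher medians in Mrc1-high cells of each region, and Dab2, Mki67 and Top2a had more cells above 100 TPM among Mrc1-high cells.

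Of the 20 border-associated genes 15 were measured and 9 of those were at 0 in every Mrc1-negative cell. Their summed level ran from 0 to 24804 TPM in Mrc1-high cells (median 511) and from 0 to 11068 TPM in Mrc1-negative cells (median 316). The median log2 ratio was 3.48 on average, 2.95 without the members at 0, and 0.58 in thalamus alone, where 7 were measured. Without the 2 cells, 8 members were measured, none was called and the median was 2.17, against 1.29 over all genes. Ms4a7, a membrane protein of border-associated macrophages, was called higher with a mean of 82.2 TPM, from 4 of 48 cells, and was listed at 0 in every Mrc1-negative cell. Stab1, a scavenger receptor often listed with these macrophages, went the other way in the means (437 against 1373 TPM) and was not called; 20 of 48 and 14 of 24 cells had 100 TPM or more.

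Dab2 was called higher. It encodes a clathrin adaptor for endocytosis of receptors such as those of the LDL family. The Mrc1-high cells ran from 0 through a median of 110 to 2006 TPM in hippocampus, from 0 through 0 to 854 TPM in thalamus and from 0 through 0.31 to 2320 TPM in visual cortex. The Mrc1-negative cells had highest values of 64.01, 268.4 and 259.7 TPM. The arms overlapped in each region, and no Mrc1-negative cell passed 268.4 TPM. In visual cortex the mean of log2(TPM + 1) differed by 0.13. Means were 277 and 39.4 TPM, a log2 ratio of 2.89 (4.10 in hippocampus, 2.50 in thalamus, 2.09 in visual cortex). Dab2 reached 100 TPM in 17 of 48 Mrc1-high cells (35.4%, interval 22.2 to 50.5%) and 2 of 24 Mrc1-negative cells (8.33%, interval 1.03 to 27%). Both cells with border-associated genes were among the 17, at 2006 and 2320 TPM, and without them the log2 ratio was 2.50 but the sign was no longer the same in all regions on both scales. Of the intermediate cells 6 of 38 (15.8%) reached 100 TPM, a share between those of the arms. Their mean was 351 TPM and 98.8 TPM without the highest cell, at 7028 TPM.

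Of the 22 measured scavenger and endocytic receptor genes, Dab2 and the lectin Clec4a1 were called higher (16.9% of all genes were) and none lower. Clec4a1 averaged 44.2 against 31.8 TPM (log2 ratio 0.99 in thalamus) and was found in 9 of 48 and 2 of 24 cells. Without the highest cell of each arm its means were 30.1 and 0.91 TPM. The list median was 1.85, against 1.35 over all genes, and 0.36 in thalamus alone, against 0.10. Cd68, a lysosomal membrane protein of phagocytes, was not called: it averaged 1855 against 1936 TPM.

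Cell cycle genes were often called. Of 29 measured members 13 were called higher, against 16.9% of all genes, and Mcm5 alone was called lower. The median log2 ratio was 3.52 on average (5.45 in hippocampus, 3.32 in thalamus, 1.86 in visual cortex), above that of all genes in each region. In thalamus alone, with 15 cells in each arm, 18 of 29 were higher, against 40.4% of all genes, and 5 lower, against 35.1%. The 13 comprise the proliferation antigen Mki67, the DNA topoisomerase Top2a, the mitotic cyclins Ccnb1 and Ccnb2 with their kinase Cdk1, the mitotic regulators Cenpf, Aurka, Aurkb and Bub1b, and Rrm1, Rrm2, Mcm2 and Tk1 of DNA synthesis.

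Mki67 ranged from 0 to 731 TPM in hippocampal, 0 to 562 TPM in thalamic and 0 to 588 TPM in cortical Mrc1-high cells, with medians of 0.43, 12.4 and 0 TPM. The Mrc1-negative cells were all at 0 in hippocampus and reached 183.9 TPM in thalamus and 30.96 TPM in visual cortex. Most cells of both arms were near 0, and the difference lay in the number of cells with a high value. Mki67 was at 1 TPM or more in 21 of 48 Mrc1-high cells (43.8%, interval 29.5 to 58.8%) and 5 of 24 Mrc1-negative cells (20.8%, interval 7.13 to 42.2%), and at 100 TPM or more in 11 and 1. Over the 3 regions the Mki67 means were 97.7 and 7.10 TPM, and 83.3 and 3.03 TPM without the highest cell of each arm. In thalamus the counts at 1 TPM or more were 9 of 15 and 3 of 15 cells, with means of 135.8 and 12.7 TPM (log2 ratio 3.32), the latter 0.47 TPM without its highest cell. In hippocampus they were 7 of 16 and 0 of 3. In visual cortex the order of the shares turned, with 5 of 17 (29.4%) and 2 of 6 (33.3%), while the means were 75.1 and 8.61 TPM.

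Top2a was at 100 TPM or more in 11 of 48 and 1 of 24 cells, with means of 245.8 and 11.7 TPM. The thalamic means were 393 and 32.2 TPM and rested on 1 cell in each arm, without which they were 73.5 and 0.92 TPM; over the 3 regions the means without the highest cell were 139.4 and 1.24 TPM. At 1 TPM or more the shares were nearer, 17 of 48 (35.4%) and 7 of 24 (29.2%), and in visual cortex 5 of 17 and 3 of 6. Ccnb2 was at 100 TPM or more in 9 of 48 cells and in no Mrc1-negative cell, where its highest value was 1.24 TPM, and it averaged 212.1 TPM in the Mrc1-high arm. Cdk1 reached 100 TPM in 10 and 1 cells; it averaged 275 against 5.31 TPM, but in thalamus 18.96 against 15.2 TPM. Aurka reached 100 TPM in 5 and 0 cells. Mcm5, a subunit of the replicative helicase, had means of 41.4 and 259.6 TPM, from 7 of 48 and 4 of 24 cells, the former 6.25 TPM without its highest cell; its direction reversed among cells with 1000 genes or more.

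Counted per cell with the regions pooled, the arms shared a middle and differed at the top. A Mrc1-high cell held a median of 4 of the 29 genes at 1 TPM or more and at most 25; a Mrc1-negative cell held a median of 3 and at most 12. At least 10 members were present in 10 of 48 Mrc1-high cells (20.8%) and 1 of 24 Mrc1-negative cells (4.17%). By region these were 5 of 16 and 0 of 3 in hippocampus and 3 of 15 and 0 of 15 in thalamus. In visual cortex the order of the shares turned, with 2 of 17 (11.8%) and 1 of 6 (16.7%). At least 5 members were present in 7 and 6 of the 15 thalamic cells of each arm. Among the 46 and 20 cells with 1000 genes or more both medians were 4, the same 10 and 1 counts held, and 10 genes were called higher and none lower. With the 21 and 5 Mki67-positive cells left out, 17 members were measured, 1 was called higher and the median was 0.95, against 1.06 over all genes. Mki67 is itself a member of the list, so this setting leaves out cells by the list's own values and a lower list median was built into it. The number of genes per cell overlapped between arms, and its part in the result beyond this was not tested.

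The stretches before the starts of 3 of these genes are printed because the genes were called higher together and carry 2 short motifs known from genes of mitosis, the CCAAT box bound by NF-Y and the cell cycle genes homology region, TTTGAA. They are the 250 bases before the RefSeq start (GRCm38.p6), 5′ to 3′ on the gene's strand, with each match on either strand in capitals: CCAAT reads ATTGG and TTTGAA reads TTCAAA on the opposite strand. Ccnb2 lies at chr9:70421555-70421804, Cdk1 at chr10:69352913-69353162 and Top2a at chr11:99024190-99024439, all on the minus strand.
Ccnb2: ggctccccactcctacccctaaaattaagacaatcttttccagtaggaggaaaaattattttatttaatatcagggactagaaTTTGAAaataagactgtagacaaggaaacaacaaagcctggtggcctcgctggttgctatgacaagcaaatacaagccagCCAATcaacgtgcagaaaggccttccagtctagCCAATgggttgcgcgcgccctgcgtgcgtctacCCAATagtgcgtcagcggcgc
Cdk1: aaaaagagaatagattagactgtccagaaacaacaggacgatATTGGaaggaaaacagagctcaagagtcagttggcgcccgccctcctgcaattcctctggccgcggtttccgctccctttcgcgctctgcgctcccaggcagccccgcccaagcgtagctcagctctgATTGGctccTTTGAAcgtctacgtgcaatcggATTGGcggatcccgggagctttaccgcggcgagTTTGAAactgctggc
Top2a: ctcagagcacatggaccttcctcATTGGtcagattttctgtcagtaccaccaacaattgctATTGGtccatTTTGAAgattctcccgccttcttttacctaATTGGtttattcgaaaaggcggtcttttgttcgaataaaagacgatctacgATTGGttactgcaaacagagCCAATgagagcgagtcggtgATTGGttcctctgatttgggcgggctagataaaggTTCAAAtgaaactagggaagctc

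Ccnb2 held 3 CCAAT and 1 TTTGAA, Cdk1 held 3 and 2, and Top2a held 6 and 2. CCAAT was found in 23 of 26 cell cycle genes with an entry, 11 of the 12 called higher among them, and in 34.5% of 27025 promoters of the same length. TTTGAA was found in 7 of 26, 5 of the 12 called higher, and in 16.3% of all. The 5 with both were Mki67, Top2a, Ccnb2, Cdk1 and Mcm2; 5.73% of all promoters had both. The 2 motifs do not overlap in their letters, and a match is a description of sequence.

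Among genes chosen after their values were seen, 3 that encode chromatin or nuclear proteins were called higher. The histone variant H2afz averaged 1053 against 367 TPM (log2 ratio 1.60, and 0.81 in thalamus), with medians of 371 and 25.7 TPM. Hmgb2, a chromatin protein of dividing cells, averaged 119.04 against 19.6 TPM (3.01, and 0.92 in thalamus). Ptma, the acidic nuclear protein prothymosin alpha, ran from 0 through 578 to 5205 TPM in Mrc1-high cells and from 0 through 168.9 to 1258 TPM in Mrc1-negative cells, and reached 100 TPM in 45 of 48 and 13 of 24.

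Akr1a1, an aldehyde reductase, had higher medians in the Mrc1-high cells of each region. The Mrc1-high cells had medians of 837 TPM in hippocampus, 1022 in thalamus and 480 in visual cortex; the Mrc1-negative medians were 0, 0 and 2.37 TPM. It reached 100 TPM in 33 of 48 Mrc1-high cells (68.8%, interval 53.7 to 81.3%) and 6 of 24 Mrc1-negative cells (25%, interval 9.77 to 46.7%). Means were 1006 and 77.3 TPM, a log2 ratio of 4.61 (2.47 in thalamus), and the intermediate cells averaged 254.3 TPM. Cells of both arms were at 0 in each region. At P14 in visual cortex the means were 408 and 486 TPM.

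Few abundant genes were lower. Hspa8, a constitutive heat shock protein and chaperone, averaged 1765 against 3052 TPM (log2 ratio -0.77) and was lower in each region, by -0.90, -0.61 and -0.81; the cells ran from 0 to 9421 and from 0 to 13060 TPM. Of the 8 measured heat shock genes it was the 1 called. In visual cortex the difference of its means rested on 1 Mrc1-negative cell, at 13060 TPM. Without the highest cell of each arm there, the cortical means of Hspa8 were 1451.3 and 1417.7 TPM. At other ages its log2 ratio was 0.33 at P14, -0.04 at E18.5 and -0.47 at E16.5. Csf3r, the receptor for granulocyte colony-stimulating factor, averaged 161.05 against 355 TPM (-1.10, and -1.75 in thalamus) and reached 100 TPM in 9 of 48 and 8 of 24 cells. In thalamus the medians of Csf3r were 1.73 and 81.5 TPM. Its direction reversed when the highest cell of each arm and region was left out. Frmd4a averaged 224.9 against 594 TPM (-0.61 in thalamus), and the Mrc1-negative mean was 231.6 TPM without its highest cell. Gnaq, a G protein alpha subunit, averaged 21.5 against 124.9 TPM (-3.08 in thalamus). The lysosomal protein gene Cln3 averaged 237.4 against 569.97 TPM (-2.93 in thalamus), the latter 319.9 TPM without its highest cell.

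Among the genes with the largest difference in their weakest region, most were present in a minority of cells. By the fixed rule, the highest-ranking were Zfp945, Arap1, Mettl23, Akap8, Arl6ip4, Adam15, Emc2, Plekha2, Banf1 and Mrps33. Zfp945 averaged 65.96 TPM from 13 of 48 cells and was under 1 TPM in all 24 Mrc1-negative cells. Banf1, a chromatin protein needed for nuclear envelope assembly, averaged 393 against 10.4 TPM from 19 of 48 and 1 of 24 cells; 1 cell gave 61.1% of the summed level of the Mrc1-high arm, and without it the mean was 157.9 TPM. For Arap1, 1 cell gave 75.3% of the summed level of the Mrc1-high arm. Among the leading genes called lower, ranked in the same way, were Ints7, Pnn, Appl2, Letmd1, Kbtbd2, Slc39a10, St6gal1 and Znrf2. Ints7 averaged 1.16 against 100.8 TPM, from 7 of 48 and 8 of 24 cells, the latter mean 57.7 TPM without its highest cell.

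Immune lists held few called genes. For antigen presentation, B2m, the light chain of MHC class I, was called higher at 2957 against 1925 TPM (log2 ratio 0.64, and 0.69 in thalamus) and was the 1 of 10 class I genes called; none of 3 measured class II genes was. For complement, C1qb was called higher at 6599.8 against 4113 TPM (0.25 in thalamus), 1 of 9. The inflammatory list had 1 of 19 called and the immediate early list 1 of 17, all higher (16.9% of all genes were), with thalamic medians of -0.15 and -0.26. Fos, an immediate early factor that also responds to cell isolation, reached 100 TPM in 34 of 48 and 14 of 24 cells, and Ccl4, a chemokine, in 26 and 11. The interferon list had 2 of 16 called higher, with region medians from -1.48 in thalamus to 4.21 in hippocampus. Klf4, a transcription factor of alternatively activated macrophages, was called higher at 34.1 against 9.07 TPM (log2 ratio 1.85 in thalamus), 1 of 7 measured alternative activation genes. Without the highest cell of each arm its means were 27.7 and 3.45 TPM. Of the metabolic lists, glycolysis had 1 of 11 called and lipid handling 3 of 20, all higher.

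Lysosomal genes had a median of 0.00 (-0.40 in thalamus), and of 20 genes 3 were called higher and 1 lower. Those higher were the proteases Ctsc (491 against 190.5 TPM) and Ctsz (2592 against 1321 TPM) and progranulin, Grn (1725 against 1154 TPM). In thalamus their log2 ratios were 1.71, 0.71 and 0.16. Without the highest cell of each arm the Ctsc means were 418.5 and 92.7 TPM. Of all genes 16.9% were called higher and 1.41% lower, with a median of 1.35 (0.10 in thalamus alone). Of 26 developmental and disease-associated genes 3 were called, all higher (Fabp5, Csf1 and B2m), and the median was 0.30 (-0.22 in thalamus). Apoe, a lipid carrier of that list, was not called: it averaged 1678 against 2392 TPM. In TGF-beta signalling, the pathway that maintains homeostatic microglia, Smad3, Smad7 and Ski were called higher of 13, and none lower. The list median was 0.62, against 1.35 over all genes. In thalamus alone it was -0.04, with 2 genes higher and 4 lower. Smad3 averaged 79.6 against 32.7 TPM from 9 and 3 cells (0.48 in thalamus), and 57.6 against 2.46 TPM without the highest cell of each arm. Ski averaged 34.01 against 5.08 TPM from 17 and 4 cells (2.91 in thalamus). Ribosomal protein genes had 16 of 83 called higher, against 16.9% of all genes, and none lower. Among the called were Rps4x at 928 against 299.9 TPM and Rps27l at 160.4 against 38.3 TPM. The ribosomal median was 0.59 against 1.35 over all genes (0.24 in thalamus). On the mean of log2(TPM + 1) the order turned, with 1.23 against 0.26.

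**Figure D4:**
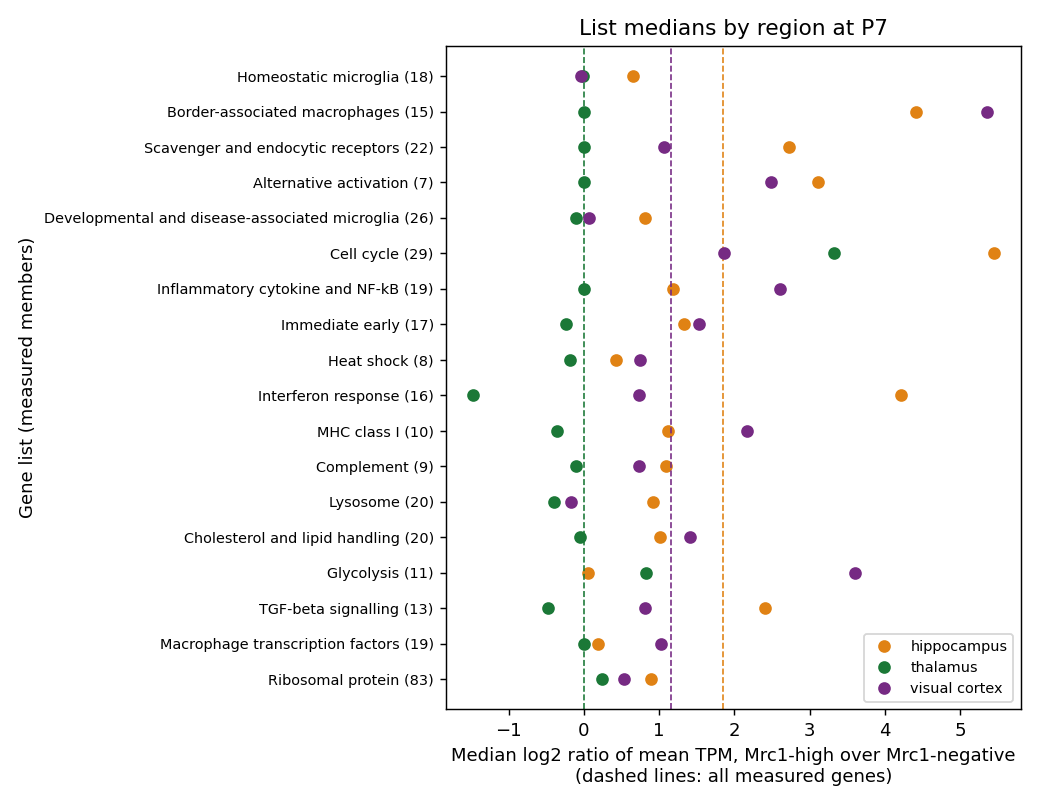
Median log2 ratio of mean TPM, Mrc1-high over Mrc1-negative, for each list with 7 or more measured members, by region; each point is 1 list in 1 region and dashed lines are the medians of all measured genes. The cell cycle list lay above the all-gene median in each region (5.45, 3.32 and 1.86). The border-associated list was at 0.00 in thalamus, where 11 and 14 of its 20 genes were at 0 in every cell of the Mrc1-high and Mrc1-negative arms. Over the 7 measured in thalamus alone its median was 0.58.

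Markers of other cell types were looked for in both arms. Of 13 monocyte genes 8 were at 0 in every Mrc1-high cell and 11 in every Mrc1-negative cell; of 11 neutrophil genes 10 were at 0 in each arm. No neuronal gene of 10 reached 1 TPM in any cell of the arms. Of 7 B cell genes 5 were at 0 in every cell of each arm, but Cd79b and Ighm were present: the summed level had a median of 279.1 TPM in Mrc1-high and 279.03 TPM in Mrc1-negative cells, with highest cells at 7857 and 5115 TPM, and 9 of 48 and 0 of 24 cells had both at 100 TPM or more. The medians of the astrocyte, oligodendrocyte lineage and endothelial lists were under 1 TPM in each arm. Single cells reached 2591 and 1463 TPM of astrocyte genes, 711 and 676 TPM of oligodendrocyte lineage genes and 442 and 1601 TPM of endothelial genes. Of the 10 genes in each of these lists, 1, 3 and 6 were at 0 in every Mrc1-high cell and 7, 6 and 9 in every Mrc1-negative cell. Their part in the results was not tested. Of the sort genes, Ptprc, which encodes CD45, was called higher at 424 against 231.9 TPM (0.59 in thalamus), found in 36 of 48 and 14 of 24 cells. Without the highest cell of each arm its means were 370 and 109.2 TPM.

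Intermediate cells had means between those of the arms for some of these genes and outside them for others. Among those between were Akr1a1, Ccnb2 (17.9 TPM), Aurka (10.3 TPM), Top2a (212.2 TPM), Cdk1 (105.9 TPM), H2afz (542 TPM) and Hmgb2 (80.5 TPM). The mean lay below both arms for the cell cycle gene Ccnb1 (0.07 TPM) and for Hspa8 (1719 TPM). It lay above both for the cell cycle gene Tk1 (168.1 TPM), Sall3 (49.7 TPM), Klf4 (62.1 TPM) and, narrowly, Ptma (917 against 912 TPM in the Mrc1-high arm). Mki67 was at 1 TPM or more in 10 of 38 cells, a share between those of the arms. Its mean was 211.8 TPM, above both arms, and 40.8 TPM, between them, without the highest cell, at 7744 TPM.

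The same Mrc1 levels were applied to paired-end cells of other ages, where the choice of genes at P7 played no part: P14 visual cortex (58 and 64 cells), E18.5 thalamus (14 and 19 cells) and visual cortex (12 and 7 cells) and E16.5 whole brain (75 and 7 cells). The E16.5 and E18.5 Mrc1-high cells carried border-associated genes: 14 of 15 measured at E18.5 and 19 of 19 at E16.5 were higher, where 33.7% and 47.4% of all genes were. Pf4 averaged 4272 against 7.45 TPM at E18.5 and 7117 against 6.32 TPM at E16.5, and F13a1 753 against 0.87 TPM and 1886 against 1.18 TPM. P2ry12 was lower at E16.5 (772 against 2219 TPM) and higher at E18.5 (1190 against 814 TPM). At E18.5 8 of 18 homeostatic genes were higher and none lower, and at E16.5 none of 17 was higher and 12 were lower. The E18.5 arms differed in genes per cell, with medians of 2746.5 and 1004 in thalamus and 3299.5 and 2659 in visual cortex. Fewer than 1000 genes were found in 8 of 19 and 3 of 7 Mrc1-negative cells and in no Mrc1-high cell. The part of genes per cell in the E18.5 results was not tested. At P14 7 of 10 measured border-associated genes were higher and none lower, where 35.3% of all genes were higher, but most of the 7 rested on few cells. Ms4a7, Folr2, Clec4n and Ccl24 were each at 1 TPM or more in 1.72% of Mrc1-high cells, and Ccl24 in 3.13% of Mrc1-negative cells. Pf4 was found in 5.17% of Mrc1-high cells, averaged 68.03 TPM and was listed at 0 in the Mrc1-negative arm. Dab2 and Ms4a6c were found in 32.8% and 29.3% of Mrc1-high cells and each in 17.2% of Mrc1-negative cells. F13a1 and Lyve1 were at 0 in both arms.

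At P14, 18 of 27 measured cell cycle genes were higher, where 35.3% of all genes were, and 4 were lower, where 23.8% were; the median was 2.06 against 0.17 over all genes. Mki67 was at 1 TPM or more in 8 of 58 and 3 of 64 cells (13.8%, interval 6.15 to 25.4%, and 4.69%, interval 0.98 to 13.1%). The share of cells was higher in the Mrc1-high arm for 25 of 29 genes, while it was for 66.2% of all genes. The P14 arms had medians of 2733.5 and 2507 genes per cell. Fewer than 1000 genes were found in 6 of 64 Mrc1-negative cells and in no Mrc1-high cell, and the part of this in the P14 shares was not tested. Ccnb1 (32.2 against 53.99 TPM) and Aurka (0.14 against 2.26 TPM) were lower in the Mrc1-high arm at P14, and Mcm5 higher (26.7 against 0.40 TPM). At E18.5 4 of 29 were higher, where 33.7% of all genes were, and 2 lower, where 6.68% were, and at E16.5 9 were higher (47.4% of all) and 8 lower (24.7% of all). Dab2 was higher at every age, at 101.3 against 55.6 TPM at P14, 1036 against 79.6 TPM at E18.5 and 1751 against 23.96 TPM at E16.5.

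The P7 calls as a whole did not carry over beyond the background. Of the abundant genes (detected in 50% or more of P7 cells) called higher at P7, 52.2% had a ratio above 0 at P14, against 58.4% of all 1002 such genes. At E18.5 the shares were 85.1% and 80.5%, and at E16.5 45.2% and 52.7%.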

How the data were processed

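Per the labels' protocols, single brain macrophages were captured on Fluidigm C1 chips and made into Nextera XT libraries; the authors deposited 1 table of TPM values for 43280 genes. The submitters' processing notes list RSEM 1.2.19, Seurat and the GRCm38 genome. Aligner, annotation and filters: not given in the sources used here. TPM keeps no depth, so reads per cell are unknown, strand is not stated, and no molecular identifiers are described. Column sums ran from 997424 to 1000000. Of the columns, 479 were used and 1138 were not, being cells of groups not compared here.

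Cells were assigned to age and region from the labels and to arms by Mrc1 (100 TPM or more, below 1 TPM), leaving Mrc1 out of all results. For each gene, log2((mean TPM + 1)/(mean TPM + 1)) was taken within region and averaged over the 3 regions with equal weight; the pseudocount of 1 TPM understates differences of low genes. Genes under 5 TPM in both arms were not measured. Printed means are averages of region means unless a region is named. A ratio is not printed for a gene where an arm is listed at 0. Named genes had a mean of 50 TPM or more and 1 TPM or more in 25% of cells of the higher arm; the 10 with the largest smallest ratio over regions and up to 4 per list were taken in each direction, without mitochondrial, ribosomal (in the ranking), predicted and Y-linked genes and pseudogenes. Genes named for a count, and Clec4a1, Cd68, Mki67, Ccnb2, Aurka, Mcm5, Apoe, Ccl4, Fos, Klf4, Smad3 and Ski, were chosen after their values were seen. A few genes are not reported here by name.

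The cells, the gene lists (31) and the rules were chosen with earlier results of these data known. Shares carry exact Clopper-Pearson 95% intervals, whose upper bound is the limit given for a count of 0; they cover counting error over cells only. No 2 P7 columns were identical. Doublets were not called, because the tools for that need molecule counts. Coordinates come from GENCODE M21 (GRCm38) and promoter sequences from RefSeq (GRCm38.p6), first start per gene, without chromosome 18. The ratio was tested on random arms of the real sizes drawn from the P7 cells, with 200 genes changed by known folds. Those genes were detected in 50% or more of the drawn cells, so the test did not cover sparsely detected genes. Alternatives (18 planned, 3 added after seeing the data) are in the closing section. The tools were pandas 2.3.3 with numpy 2.4.6, scipy 1.17.1 and matplotlib 3.10.9 under Python 3.11.15.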

Additional observations from a re-analysis of the deposited data

Results flagged for a closer look

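In the 6 Mrc1-negative cells of visual cortex, 1 cell stood far from the rest on the log2(TPM + 1) scale for 17 of 44 genes and counts examined (gap over range above Dixon's critical value of 0.625). The cell was not the same for every gene: that of Ptprc had 2248 genes at 1 TPM or more, that of Clec4a1 2069 and that of Tk1 2397. Chance flags about 1 in 20 such groups, and values at 0 make a gap easy to reach: for 11 of the genes below the other 5 cells were at 0.

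The highest cell stood out for Tmem119 (1547 TPM, next 10.8), Hmgb2 (59.1 TPM, next 2.19), Ptprc (2209 TPM, next 3.63) and Ccl4 (9787 TPM, next 26.6). With the other cells at 0, it stood out for Sall3 (0.64 TPM), Clec4a1 (557 TPM), Cdk1 (4.27 TPM), Ccnb1 (2.99 TPM), Aurka (1.7 TPM) and Tk1 (227.4 TPM). The same held for Rps27l (61.3 TPM), Klf4 (101.3 TPM), Smad3 (16.7 TPM), Ski (29.8 TPM) and Arap1 (1.24 TPM). The lowest cell stood out for Hspa8 (0 TPM, next 464) and Apoe (25.4 TPM, next 345). The cortical means of these genes in the Mrc1-negative arm therefore rest on few cells.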

How the results depend on the processing

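Of the measured genes, the share called higher (16.9%) was 26.04% without hippocampus, 38.7% without thalamus, 28.001% without visual cortex, 45.2% with the regions pooled, 31.1% without the highest cell of each arm and region, 13.8% among genes in 50% of cells and 40.4% in thalamus alone. The share called lower (1.41%) was 3.64% with the negative arm below 10 TPM, 7.92% without hippocampus, 4.31% without thalamus, 7.101% without visual cortex, 24.6% with regions pooled, 0.228% without the highest cells, 1.098% among genes in 50% of cells and 35.1% in thalamus alone. Fewer regions or genes, by construction, change how many can pass; the cause of the other shifts was not tested. The homeostatic median (0.17) was 0.86 on the mean of log2(TPM + 1), against 0.26 over all genes, and 0.78 without the highest cells; the border-associated median (3.48) was 0.40 on that scale and 0.58 in thalamus alone.

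Over the named genes, 6 values reversed: Mcm5 (0.25 in cells with 1000 genes, 0.60 in cells at or above the median), Cln3 (0.16 in the latter, 1.01 without the highest cells), Csf3r (1.99 without the highest cells) and Cdk1 (-0.11 without Mki67-positive cells). Of the lists whose median passed 1.5-fold, those below 0 in thalamus alone were inflammatory (-0.15), immediate early (-0.26), interferon (-2.37), MHC class II (-1.46), MHC class I (-0.35), complement (-0.16), lipid (-0.29) and TGF-beta genes (-0.0378). With regions pooled they were immediate early (-0.24), MHC class I (-0.15), complement (-0.0674) and TGF-beta (-0.0736), with the negative arm below 10 TPM MHC class II (-1.73), class I (-0.0740) and complement (-0.20), and among genes in 50% of cells transcription factors (-0.20). The homeostatic, developmental, heat shock, lysosomal and sort gene medians, nearer 0, changed sign under several settings (-0.01, -0.22, -0.32, -0.40 and 0.58 in thalamus alone). The cell cycle median was above that of all genes under each alternative except without Mki67-positive cells (0.95 against 1.06). That setting leaves out cells by a member of the list, so a lower list median was built into it. No paired analysis was possible because replicate numbers only follow accession order and no result comes from a test. Depth is unknown, 3 cells limit the hippocampal negative arm, and small differences in sparsely detected genes were not detectable.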
